A study of Homo sapiens with 3 samples.

Results

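Macrophages given imiquimod together with DMD were compared with macrophages given imiquimod alone, gene by gene. The members were chosen by measurement quality. A probe was kept if the scanner software rated it well above background on both arrays and its log2 normalized intensity reached 8 on at least 1 of them. This kept 18004 of the 58201 probes in the series, and 12001 of the 23977 genes with a current symbol. The comparison used 2 of the 3 arrays of the series, 1 array per condition.

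All 3 samples were THP-1 cells, a human monocytic leukemia line, turned into macrophage-like cells with the phorbol ester PMA (100 ng/ml). One array held cells given neither agent (Ctrl), one held cells given imiquimod (IMQ), a small-molecule agonist of toll-like receptors, and one held cells labelled IMQ+X. X was read as DMD, a dimethoxy-methylbenzenediol from the fungus Antrodia cinnamomea, because the protocol names no compound other than DMD beside IMQ, and this array is called IMQ+DMD here. The labels give 4 h for every array and no dose of IMQ or DMD, whereas the study's general methods describe a longer incubation. No array of DMD without IMQ was analysed here. The values are Cy3 intensities on an oligonucleotide array, although the study speaks of RNA sequencing.

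Because each condition had 1 array, no difference below has a p-value or a replicate check. Treatment and array cannot be told apart. A difference is the log2 intensity of IMQ+DMD minus that of IMQ. The only error available was the noise of single spots. From probes printed in 10 spots, the SD of a difference between single spots was 0.10 log2 units for log2 intensities of 8 to 9, 0.065 for 10 to 12, and 0.053 above 14. A comparison of IMQ with Ctrl would share the IMQ array with this one, so Ctrl is given by its levels only. In such bulk samples, fewer cells of a type and less RNA per cell cannot be told apart.

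Imiquimod signals through toll-like receptors to NF-kB and MAP kinases, which switch on genes for cytokines, chemokines and their feedback inhibitors. NRF2 is a transcription factor held inactive by KEAP1 until electrophiles or oxidants release it, and it then drives genes for antioxidant and detoxifying enzymes through the antioxidant response element. Metallothioneins are small zinc-binding proteins whose genes are driven by the zinc-sensing factor MTF1 through metal response elements.

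NRF2 targets were higher with DMD added, and metallothioneins were lower. CCN2, which encodes a secreted matricellular protein, had the largest difference among genes well above background on both arrays. The 250 bases upstream of the annotated start of some of these genes are shown from RefSeq (GRCh38.p14, each on the strand of its gene) so that the sequence can be seen beside the values. Capitals mark matches on either strand to TGACNNNGC, the core of the antioxidant response element, for TXNRD1 (chr12:104215529-104215778, + strand), ME1 (chr6:83431052-83431301, - strand) and PGD (chr1:10398814-10399063, + strand).

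TXNRD1: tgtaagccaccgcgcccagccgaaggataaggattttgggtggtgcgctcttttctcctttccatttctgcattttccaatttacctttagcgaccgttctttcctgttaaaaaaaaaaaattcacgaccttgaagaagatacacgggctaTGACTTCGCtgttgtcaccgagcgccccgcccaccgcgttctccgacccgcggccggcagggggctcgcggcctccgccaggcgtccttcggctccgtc
ME1: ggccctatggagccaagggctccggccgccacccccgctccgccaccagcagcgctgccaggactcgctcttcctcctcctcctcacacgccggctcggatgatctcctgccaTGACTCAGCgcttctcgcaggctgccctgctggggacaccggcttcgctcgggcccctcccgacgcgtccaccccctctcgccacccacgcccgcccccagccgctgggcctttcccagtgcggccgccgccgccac
PGD: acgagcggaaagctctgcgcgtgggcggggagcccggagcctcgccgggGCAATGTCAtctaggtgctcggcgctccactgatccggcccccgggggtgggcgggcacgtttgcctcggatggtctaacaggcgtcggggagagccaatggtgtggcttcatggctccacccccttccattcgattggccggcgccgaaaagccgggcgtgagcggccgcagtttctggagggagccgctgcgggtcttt

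In MT2A (chr16:56608334-56608583, + strand) and MT1X (chr16:56682220-56682469, + strand), capitals mark TGCNCNC, the core of the metal response element. In CCN2 (chr6:131951373-131951622, - strand) they mark GGAATG, a site of TEAD factors.

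MT2A: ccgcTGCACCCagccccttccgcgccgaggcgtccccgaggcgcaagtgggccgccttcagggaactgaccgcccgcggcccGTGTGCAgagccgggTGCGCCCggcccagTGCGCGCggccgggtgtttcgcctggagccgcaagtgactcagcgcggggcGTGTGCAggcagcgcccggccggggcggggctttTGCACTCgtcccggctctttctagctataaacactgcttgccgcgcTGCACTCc
MT1X: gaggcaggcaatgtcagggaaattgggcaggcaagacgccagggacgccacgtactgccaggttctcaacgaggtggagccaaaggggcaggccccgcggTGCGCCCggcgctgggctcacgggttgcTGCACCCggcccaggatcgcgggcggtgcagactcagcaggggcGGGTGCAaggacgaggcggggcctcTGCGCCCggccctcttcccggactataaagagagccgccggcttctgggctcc
CCN2: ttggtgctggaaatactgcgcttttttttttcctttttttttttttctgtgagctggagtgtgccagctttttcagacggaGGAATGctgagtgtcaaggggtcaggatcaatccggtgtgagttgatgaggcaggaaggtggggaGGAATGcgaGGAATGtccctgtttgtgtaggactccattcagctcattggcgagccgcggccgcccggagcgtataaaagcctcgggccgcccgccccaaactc

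The TXNRD1 match began 99 bases before the start, the ME1 match 137 bases and the PGD match 201 bases before it. MT2A held 7 matches, MT1X held 4 and CCN2 held 3, and none of the matches printed for a gene overlapped another. A promoter was found for 18 of the 26 measured NRF2 targets, and 5 of the 18 held TGACNNNGC, against 11% of the 27305 promoters of all genes. For the metallothionein list, 3 of 4 promoters held TGCNCNC, against 48.4% of all promoters. For the matricellular list, 2 of 9 held GGAATG, against 11.9%. A match of these letters is a description and not a known binding site. For genes with several starts, the first one listed was used.

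Most genes differed little between the arrays. The median difference over the 12001 genes was -0.01, with 45.9% of them above 0 and 53.9% below 0, and 84.0% of them lay within 1.2-fold. At least 2-fold higher after IMQ+DMD were 22 genes (0.183% of those measured), and 28 genes were at least 2-fold lower (0.233%). At 1.5-fold, 175 genes were higher (1.46%) and 185 were lower (1.54%). The balance depended on how the arrays were scaled. With scaling to the 75th percentile the 2-fold counts were 23 higher and 45 lower and the median of all genes was -0.15, and with scaling to spike-in controls they were 127 and 10 with a median of 0.13. The share of higher genes among those past 2-fold was thus 44% with the normalization of the authors, 33.8% with the 75th percentile and 92.7% with spike-ins. At 1.5-fold these shares were 48.6%, 34.9% and 89.5%.

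**Figure D1:**
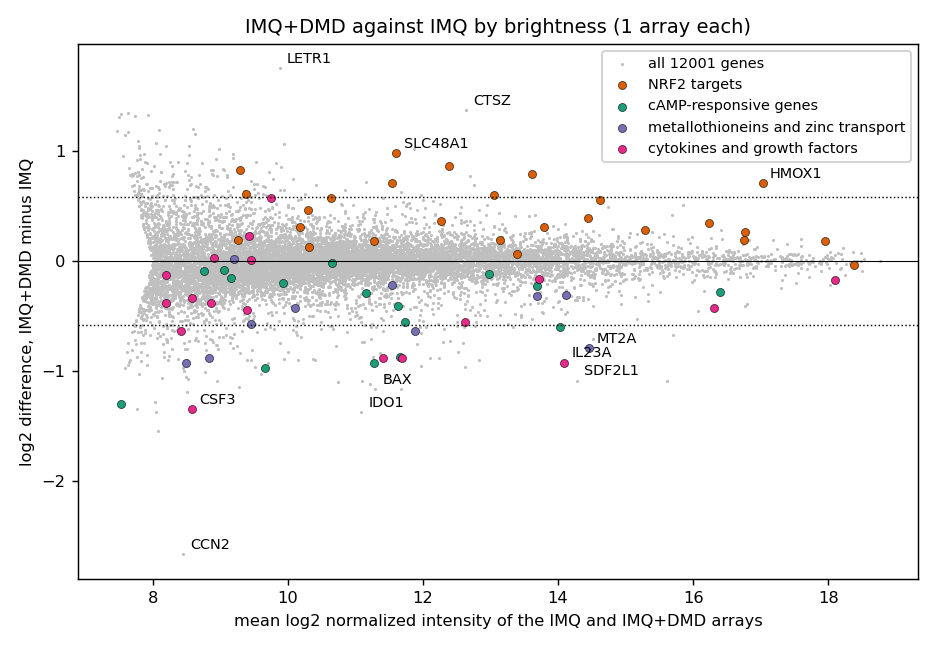
Each grey point is a gene, placed by its mean log2 normalized intensity on both arrays (horizontal) and its log2 difference, IMQ+DMD minus IMQ (vertical). Coloured points are members of 4 gene lists and dotted lines mark 1.5-fold. The spread is wider for dim genes. NRF2 targets (orange) lie above 0 except 1 of 26, the 16 cAMP-responsive genes (green) lie below 0, and CCN2 is lowest at -2.67.

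The 12 genes with the largest negative differences included a cytokine and enzymes of tryptophan, prostaglandin and cAMP metabolism. CCN2, listed on the array as CTGF, had an intensity of 20.6 in Ctrl, 877 with IMQ and 138 with IMQ+DMD. With DMD added it was 6.37-fold lower, a log2 difference of -2.67 against a spot noise of 0.10. The level after IMQ+DMD lay between the other two arrays. The single CCN2 probe lies at chr6:132270130-132270189 (hg19).

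IDO1, which encodes the enzyme that opens the tryptophan ring on the way to kynurenine, read 78.9 in Ctrl, 3503 with IMQ and 1351 with IMQ+DMD. PTGS2, the inducible cyclooxygenase of prostaglandin synthesis, read 56.7, 424 and 164 in the same order. CSF3, the granulocyte colony-stimulating factor, read 30.0, 612 and 240.1. IDO1, PTGS2 and CSF3 were 2.59-, 2.59- and 2.55-fold lower, and in each the IMQ array was highest and the Ctrl array lowest. PDE4D, a phosphodiesterase that breaks down cAMP, read 48.8, 288 and 117, and SAMSN1, an adaptor protein of hematopoietic cells, read 263, 409 and 168.

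Several of the 12 genes had their lowest level with DMD added. PRKAG1, a regulatory subunit of the AMP-activated kinase, read 428 in Ctrl, 460.3 with IMQ and 157 with IMQ+DMD. BAZ2A read 445, 549.8 and 239.9, CLASRP 4313, 4893 and 2179, and EML2 565, 921 and 415. SNORA2B, a small nucleolar RNA, read 162, 345 and 136. For PRKAG1, BAZ2A, CLASRP, EML2 and SNORA2B the IMQ+DMD array was the lowest of the 3. With IMQ, the PRKAG1 spot had a higher unevenness of pixels than 99.03% of spots as bright.

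BAX, a pore-forming protein of apoptosis, was read by 2 probes that disagreed. The brighter probe, printed in 10 spots, gave 2879 in Ctrl, 3758 with IMQ and 1677 with IMQ+DMD, a difference of -1.16. The other gave 498.5, 463 and 516, a difference of 0.16.

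At the other end were noncoding RNAs, odorant receptors and 1 lysosomal protease. LETR1, a long noncoding RNA, read 204 in Ctrl, 512.3 with IMQ and 1727 with IMQ+DMD, a difference of 1.75. Its other probe read 256.5, 294 and 346, a difference of 0.24. CTSZ, the lysosomal protease cathepsin Z, read 4369.9, 3954 and 10216 by its brighter probe, a difference of 1.37. Its other probe read 2422, 1703 and 1756 and differed by 0.04. For LETR1 and CTSZ the size of the difference therefore rested on 1 spot per array.

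LINC01559, MIR1247, HAND1, LINC01913, CEP192P1, ELAPOR1, OR1D2, OR4X2, LOC102724572 and OR7E91P completed the 12 largest positive differences, with differences of 1.16 to 1.34. Their intensities were 115 to 265 after IMQ and 265 to 592 after IMQ+DMD, and the IMQ array was the lowest of the 3 for each. All of them except OR7E91P were below the log2 minimum of 8 with IMQ and reached it with IMQ+DMD only. For these genes the selection allowed no other direction than higher, so no direction is read from them. HAND1 is a transcription factor of heart development, OR1D2 and OR4X2 are odorant receptors and ELAPOR1 is a membrane protein of the endosome and lysosome. Each was read from 1 probe. Of the 22 genes at least 2-fold higher, 14 (63.6%) stayed under a log2 intensity of 9 on both arrays and 12 (54.5%) were protein-coding. Of the 28 at least 2-fold lower, 8 (28.6%) stayed under 9 and 27 (96.4%) were protein-coding. Among all genes measured, 19.7% stayed under 9 and 89.6% were protein-coding. With the minimum raised to a log2 intensity of 10, 4 genes were at least 2-fold higher and 12 lower.

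Probes of one gene could be set side by side for few of these genes, since 9491 of the 12001 genes rested on 1 probe. Of the 22 genes at least 2-fold higher, 2 had another probe, and neither of these reached 1.5-fold. Of the 28 genes at least 2-fold lower, 5 had another probe, and 2 of the 5 were at least 1.5-fold lower there too. At 1.5-fold the next probe had the same sign for 11 of 11 higher genes and for 15 of 18 lower genes, and was itself past 1.5-fold in the same direction for 4 and 9 of them.

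**Figure D2:**
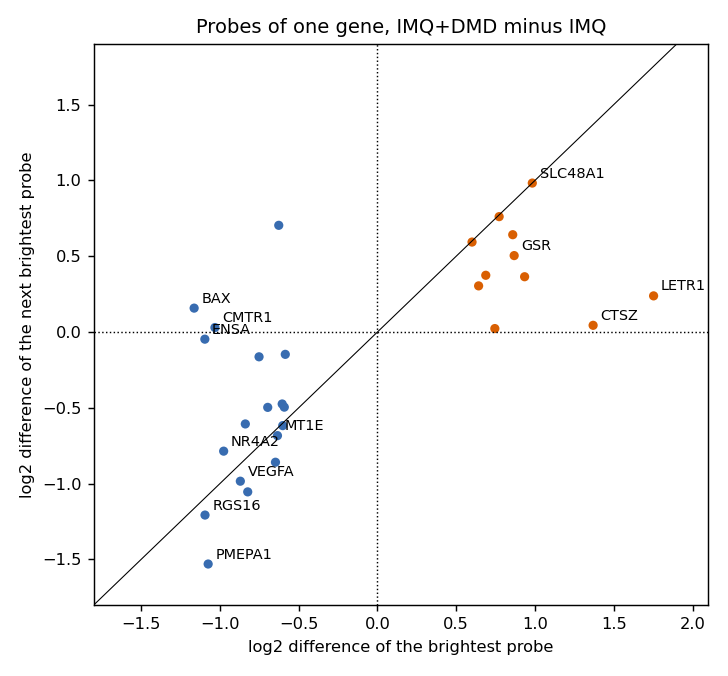
Each point is a gene past 1.5-fold with a second probe in the comparison, with the log2 difference (IMQ+DMD minus IMQ) of its brightest probe on the horizontal axis and of the next brightest on the vertical axis. Orange points are higher and blue points lower by the brightest probe, and the line marks equality. SLC48A1, MT1E, NR4A2 and VEGFA lie near the line, and CTSZ, LETR1 and BAX far from it.

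The NRF2 targets were higher after IMQ+DMD. Of 26 measured members, 25 had a difference above 0, 8 were at least 1.5-fold higher and 0 were at least 1.5-fold lower, where of all genes 45.9% were above 0, 1.46% were 1.5-fold higher and 1.54% 1.5-fold lower. Their median difference was 0.35, beside -0.01 for all genes, and it stayed between 0.18 and 0.47 under the alternative settings. The 8 genes cover heme handling, the thioredoxin and glutathione systems and detoxification.

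SLC48A1, a transporter that carries heme out of the lysosome, read 2527 in Ctrl, 2217 with IMQ and 4381 with IMQ+DMD. Both of its probes gave a difference of 0.98. HMOX1, heme oxygenase, read 45882, 104742 and 171151, a difference of 0.71 from a probe printed in 10 spots. In SLC48A1 the Ctrl and IMQ levels lay close together, whereas in HMOX1 the IMQ level lay between the other two.

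GSR, which regenerates reduced glutathione, read 2922, 3973 and 7250.4 on the Ctrl, IMQ and IMQ+DMD arrays, a difference of 0.87, and its other probe gave 0.50. TXNRD1, thioredoxin reductase, read 608, 2321 and 3802 (0.71). SRXN1, which repairs oxidized peroxiredoxins, read 2558, 9570.4 and 16567 (0.79). GSR, TXNRD1 and SRXN1 thus had the same order of arrays, with Ctrl lowest and IMQ+DMD highest.

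OSGIN1, an oxidative stress-induced growth inhibitor, read 211, 472 and 835 (0.82). EPHX1, an epoxide hydrolase, read 368, 537 and 820.2 (0.61). PIR, an iron-binding nuclear protein, read 3289, 6904 and 10476 (0.60). HMOX1, TXNRD1, EPHX1 and PIR were under 1.5-fold with scaling to the 75th percentile, at 0.58, 0.54, 0.54 and 0.42. ME1 (0.57) and PGD (0.56), enzymes that make NADPH and whose promoters are shown above, fell just short of 1.5-fold. Among the classical targets NQO1 had a difference of 0.47, SLC7A11 0.39, GCLC 0.36 and GCLM 0.31. The ferritin subunits differed less, FTL by 0.19 and FTH1 by -0.03. AKR1B10, AKR1C1, AKR1C3, ABCC2 and TRIM16 were below the brightness minimum, and AKR1C2 was not analysed here.

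The heat shock chaperones had differences above 0 in 15 of 15 measured members, with a median of 0.15, and none reached 1.5-fold, beside 45.9% of all genes above 0. Among them HSPA4L reached the minimum with IMQ+DMD only, so it had to be higher. The median was -0.01 when the arrays were scaled to the 75th percentile. HSPA1A, an inducible HSP70, had the largest difference of the list at 0.53 (2462 in Ctrl, 2958 with IMQ, 4259 with IMQ+DMD), while its near-identical neighbour HSPA1B differed by 0.15, and signal shared between these copies cannot be separated. Among aryl hydrocarbon receptor targets 3 of 7 were measured, and TIPARP had the largest difference (0.55).

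The metallothioneins were lower after IMQ+DMD. The list of metallothioneins and zinc transporters had a median of -0.50 over 10 measured members, with 9 below 0, 4 at least 1.5-fold lower and 0 at least 1.5-fold higher, beside 53.9% of all genes below 0 and 1.54% at least 1.5-fold lower. MT2A read 14207 in Ctrl, 29733 with IMQ and 17128 with IMQ+DMD, a difference of -0.80. MT1E read 3486, 4699 and 3026 (-0.64), and its other probe gave -0.68. The brighter MT1E probe was under 1.5-fold with spike-in scaling, at -0.56. MT2A and MT1E were highest on the IMQ array.

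MT1X read 581, 497 and 261 (-0.93), and MT1M read 856, 616 and 334 (-0.88), so that these were highest on the Ctrl array and lowest after IMQ+DMD. MT1F (-0.57), MT1G (-0.42) and MT1A (-0.32) had smaller differences. SLC30A1, which exports zinc and is also a target of MTF1, read 958, 581 and 589 and differed by 0.02. Metallothionein genes are near-identical in sequence, so that 1 transcript may bind probes of several. The zinc importers SLC39A14 and SLC39A8 differed by -0.31 and -0.22.

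**Figure D3:**
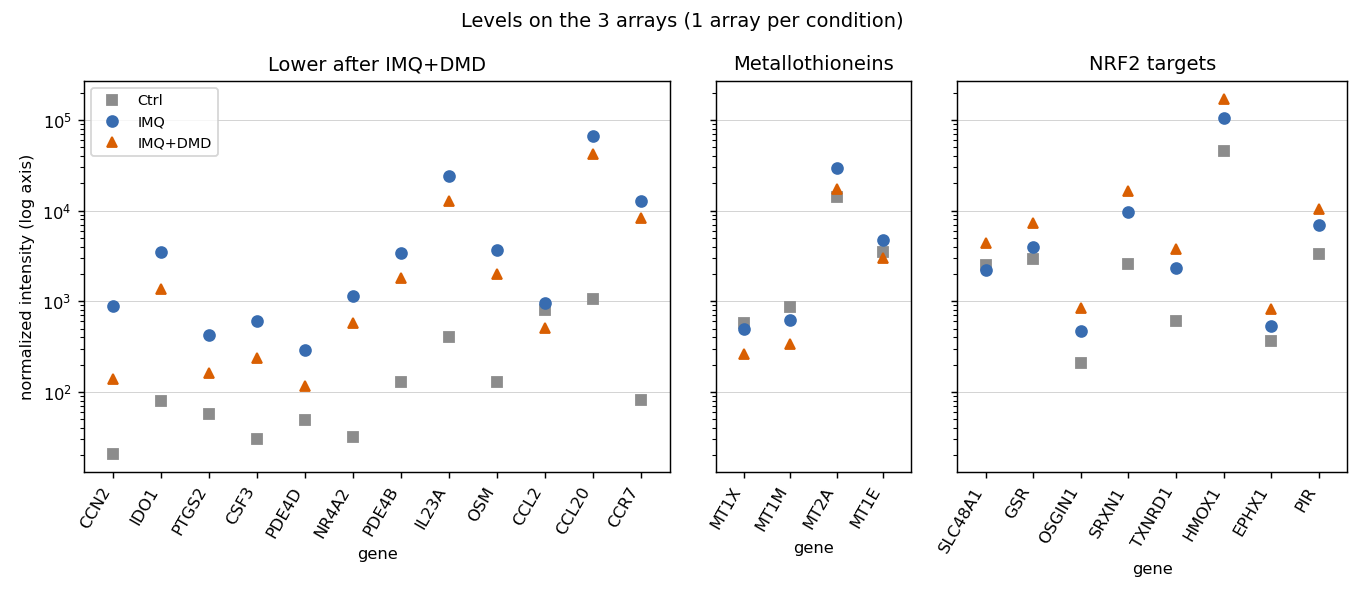
Normalized intensity on a log axis for genes lower after IMQ+DMD (left), metallothioneins (middle) and NRF2 targets (right), with 1 point per array and no error bar because each condition had 1 array. Squares are Ctrl, circles IMQ and triangles IMQ+DMD. The left genes were picked for display and show triangles below circles, and 11 of the 12 show triangles above squares, the exception being CCL2. This share follows from the choice of genes. Among the largest falls, PRKAG1, SNORA2B, SAMSN1, BAZ2A, CLASRP, BAX (brighter probe) and EML2 are not shown, and they read below Ctrl after IMQ+DMD. The NRF2 targets show triangles above circles.

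The cytokines and growth factors were lower on balance. Of 18 measured members 14 had a difference below 0, 5 were at least 1.5-fold lower and 0 were at least 1.5-fold higher, with a median of -0.38. Of all genes 53.9% were below 0, 1.54% were 1.5-fold lower and 1.46% 1.5-fold higher. CSF3 and IL36G reached the minimum with IMQ only, so they had to be lower. IL23A, the subunit specific to interleukin-23, read 405 in Ctrl, 24059.9 with IMQ and 12679 with IMQ+DMD, a difference of -0.92. INHBA, the subunit of activin A, read 205, 4470.4 and 2418 (-0.89), and OSM, oncostatin M, read 129, 3687 and 1999 (-0.88). For IL23A, INHBA and OSM the level after IMQ+DMD stayed far above the Ctrl level.

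IL6 read 55.1, 426 and 274 (-0.64, and -0.34 with spike-in scaling), and CSF3 is given above. TNF read 695, 7666 and 5227 (-0.55) and IL24 differed by -0.34, both short of 1.5-fold. Over the settings TNF ranged from -0.75 to -0.47 and IL24 from -0.34 to -0.05. IL1B differed by -0.18. CSF1, the macrophage colony-stimulating factor, went the other way, with 862 in Ctrl, 701 with IMQ and 1044 with IMQ+DMD (0.57).

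The chemokines had a median of -0.22 over 16 measured members, with 12 below 0 and 4 at least 1.5-fold lower, beside 53.9% and 1.54% of all genes. CCL2, which attracts monocytes, read 806, 959.8 and 513 (-0.90), below its Ctrl level. CCL20, a ligand of CCR6 on Th17 cells and dendritic cells, read 1049.6, 67347 and 42316 (-0.67). CCL1 read 136, 1344 and 869 (-0.63), and CXCL6 read 15.8, 364 and 239 (-0.61), with the Ctrl spot not well above background. With spike-in scaling CCL1 and CXCL6 were under 1.5-fold, at -0.47 and -0.28. CXCL6 reached the minimum with IMQ only, so it had to be lower.

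Of the chemokines that share the receptor CXCR2 and attract neutrophils, CXCL6 is given above. PPBP differed by -0.26, CXCL5 by -0.31, CXCL3 by -0.35, CXCL1 by -0.19, CXCL2 by 0.00 and CXCL8 by 0.09, and the last was below 0 without normalization and with scaling to the 75th percentile. CCL4L2 gave -0.45 by its brightest probe, and its 4 probes ranged from -0.80 to -0.41. CCL3 (-0.13) and CCL3L3 (-0.14) are near-identical copies whose signal cannot be separated. CCL22 was below the brightness minimum on both arrays, with 198.6 with IMQ and 63.8 with IMQ+DMD. An NF-kB motif, GGG followed by any 5 bases and then CC, was found on either strand upstream of 10 of 12 chemokines with a promoter, against 53.7% of all promoters.

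Of 6 measured chemokine receptors 5 had differences below 0, beside 53.9% of all genes, and the median was -0.57. CXCR5 read 114 in Ctrl, 583 with IMQ and 331 with IMQ+DMD (-0.81). ACKR3, a scavenging receptor for CXCL12, read 892, 7973 and 4762 (-0.74), from spots with a higher unevenness than 99.3% and 97.4% of spots as bright. CCR7, which guides cells to lymph nodes, read 81.8, 12682 and 8379 (-0.60). CX3CR1 read 14123, 428 and 295 (-0.54). CXCR5 and CCR7 were under 1.5-fold with spike-in scaling, at -0.55 and -0.52.

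The NF-kB feedback and target genes were lower by a small amount. Of 21 measured members 20 were below 0 and 1 was at least 1.5-fold lower, beside 53.9% and 1.54% of all genes, and the median was -0.15. That gene was NFKBIZ, an atypical inhibitor of NF-kB proteins, with 76.9, 417 and 272 (-0.62) from spots with a higher unevenness than 99.7% and 97.4% of spots as bright, and -0.32 with spike-in scaling. The inhibitor NFKBIA differed by -0.14 and TNFAIP3, a deubiquitinase of the pathway, by 0.12. The MAPK immediate-early and feedback genes had a median of -0.04, which was 0.06 with spike-in scaling. DUSP2, a nuclear phosphatase of MAP kinases, read 409, 685 and 429 (-0.67), and FOS read 2075, 4888 and 3215 (-0.60). With spike-in scaling these were -0.44 and -0.51, under 1.5-fold. ATF3 lay above 0 by all of its 4 probes, at 0.51 to 0.74.

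The cAMP-responsive genes were below 0 in 16 of 16 measured members, with a median of -0.29 and 5 at least 1.5-fold lower, beside 53.9% and 1.54% of all genes. Among them PDE4D reached the minimum with IMQ only, so it had to be lower. Besides PDE4D, PDE4B read 129 in Ctrl, 3406 with IMQ and 1794 with IMQ+DMD (-0.92). NR4A2, an orphan nuclear receptor, read 31.7, 1134 and 576 (-0.98), and its other probe gave -0.79. VEGFA, the angiogenic growth factor, read 534, 4378 and 2394 (-0.87), and its other probe gave -0.98. RGS2, a regulator of G-protein signaling, read 13276, 20552 and 13531 (-0.60) from 10 spots, and -0.53 with spike-in scaling.

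NR4A2, PDE4B, VEGFA and RGS2 had the IMQ array highest, and RGS2 returned close to its Ctrl level. NR4A3 (-0.41), CREM (-0.29) and RGS1 (-0.28) did not reach 1.5-fold. The letters TGACGTCA, the cAMP response element, were found in the upstream 250 bases of 1 of 12 members with a promoter, AREG, against 1.77% of all promoters, and AREG itself differed by -0.12.

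Genes of several other programs are given by count. In the matricellular, YAP and TGF-beta list, CCN2 was the 1 of 11 past 1.5-fold, the median was -0.23 and THBS1 differed by -0.55, while its relative CCN1 differed by -0.23. In prostaglandin and leukotriene synthesis PTGS2 was the 1 of 11 past 1.5-fold, and the constitutive PTGS1 differed by -0.11. Among matrix metalloproteinases and inhibitors MMP3, stromelysin, was the 1 of 11, with 132, 467 and 268 (-0.80, and -0.51 with spike-in scaling). Among 8 coagulation genes none reached 1.5-fold, and TFPI2 had the largest difference (-0.56).

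The ER stress and ATF4 list was mixed, with a median of 0.08 over 22 members. SDF2L1, a component of the chaperone complex of the endoplasmic reticulum, read 38915 in Ctrl, 29037 with IMQ and 13654 with IMQ+DMD (-1.09). DDIT4, an inhibitor of mTORC1, read 909.7, 5571 and 2879.8 (-0.95) from 10 spots. PSAT1, an enzyme of serine synthesis, read 2029, 639 and 1021 (0.67, and 0.57 with the 75th percentile). HSPA5 (0.22) and DDIT3 (0.08) were near 0.

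In the p53 list of 16 members the median was -0.08. BBC3 read 1921, 2020.0 and 1319 (-0.61, and -0.48 with spike-in scaling), and BAX, past 1.5-fold by its brighter probe, differed by -0.50 as the mean of its 2 disagreeing probes. In the lysosome list of 23 members CTSZ was higher and MCOLN1, a calcium channel of the lysosome, was lower with 333, 388 and 212 (-0.87, and -0.55 with spike-in scaling). MCOLN1 reached the minimum with IMQ only, so it had to be lower. In the glycolysis and hypoxia list ANKRD37 was lower among 17 members (-0.59, and -0.40 with spike-in scaling) and the median was -0.07.

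Mitochondrial genes were flat at this level. By the brightest probe of each gene, the 27 oxidative phosphorylation genes had a median of 0.00 and ranged from -0.16 (SDHC) to 0.08 (CYC1). The next brightest SDHC probe gave -0.47 and the dimmest -0.08. The 13 measured genes of mitochondrial fission and fusion had a median of 0.03 and ranged from -0.24 (OPA1) to 0.11 (MFN2). DNM1L, which encodes the fission GTPase Drp1, read 1707, 1830 and 1863 (0.03, and below 0 without normalization and with the 75th percentile), and its other probe gave -0.09. GDAP1L1 was outside the comparison. Its first probe read 45.3, 42.2 and 37.4 on the Ctrl, IMQ and IMQ+DMD arrays, and its second 4.63, 378 and 10.7, with only the IMQ spot well above background.

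None of 24 interferon-stimulated genes reached 1.5-fold, with a median of 0.09 (-0.02 with the 75th percentile) and OAS2 largest at 0.40. The other OAS2 probes gave 0.10 and 0.11. None of 17 cholesterol genes reached it either (median -0.01, SREBF2 -0.31), nor of 15 liver X receptor and lipid efflux genes (median 0.05, PPARG 0.25). The same held for 6 class II antigen presentation genes (median 0.08, HLA-DQB1 0.14) and 27 genes of DNA replication and mitosis (median -0.03, MKI67 0.44). The 4 HLA-DQB1 probes differed in sign, from -0.28 to 0.14. The 15 housekeeping genes had a median of 0.01 and ranged from -0.10 (TFRC) to 0.12 (YWHAZ). Medians this close to 0 took the other sign under 1 or more scalings. So did those of the MAPK, heat shock, ER stress, glycolysis, prostaglandin, coagulation, p53, lysosome and mitochondrial lists and of the macrophage, keratinocyte and neutrophil marker lists. Those of the NRF2, metallothionein, cytokine, chemokine, chemokine receptor, NF-kB, cAMP, matricellular and metalloproteinase lists kept their sign.

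**Figure D4:**
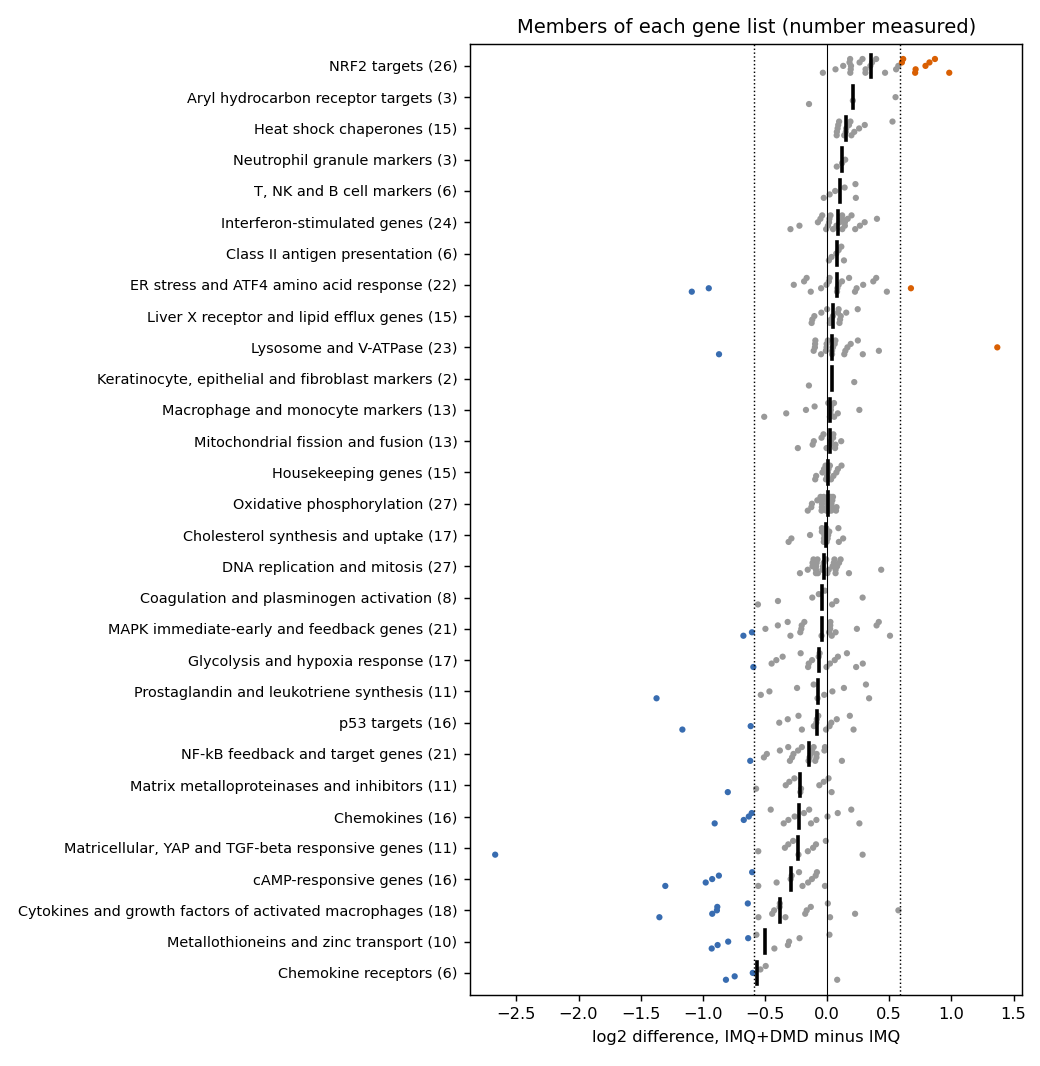
Log2 difference (IMQ+DMD minus IMQ) of each measured member of each gene list, with the number measured in brackets. Black bars are medians, dotted lines mark 1.5-fold, orange points are at least 1.5-fold higher and blue points at least 1.5-fold lower. The NRF2 targets have the highest median (0.35) and the chemokine receptors the lowest (-0.57).

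The cells carried macrophage markers on both arrays. Of 17 listed macrophage and monocyte markers 13 were measured, with a median difference of 0.03 and a summed intensity of 586564 with IMQ and 572007 with IMQ+DMD. CD14 had the largest difference (13399 against 9436, -0.51). Of the 13 keratinocyte, epithelial and fibroblast markers 2 were measured, and KRT5, KRT14, EPCAM and COL1A1 stayed under the minimum. Of 12 T, NK and B cell markers 6 were measured, with summed intensities of 13270.4 and 14072.9, and CD3E, CD2 and MS4A1 stayed under the minimum. Of 9 neutrophil granule markers 3 were measured, with summed intensities of 20762.2 and 22521.3. Most markers of these other cell types were thus below the minimum, and of the 9 measured lymphoid and neutrophil markers 8 were above 0, by at most 0.23. With scaling to the 75th percentile the neutrophil marker median was -0.08 and the lymphoid one 0.05. The part of these cell types in the differences was not tested.

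Some technical features moved with the differences. The share of probes well above background was 72% for Ctrl, 66.6% for IMQ and 71.9% for IMQ+DMD. Probes with a GC content of up to 35% had a median difference of -0.07, and those above 55% had one of 0.06. Among probes with a mean log2 intensity under 9, the medians of these classes were -0.18 and 0.05. Of such dim probes with up to 35% GC, 2.52% were at least 1.5-fold higher and 5.26% lower. The class above 45% and up to 50% GC had a median of 0.09, with 14.2% higher and 1.12% lower. RNA18SN5, the 18S ribosomal RNA, read 5602 in Ctrl, 8799 with IMQ and 4496 with IMQ+DMD, and was looked at after its value was seen. The part of these features in the differences was not tested.

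A few probes were bright on 1 array and not well above background on the other, so that only a bound can be given, against the lowest intensity among probes well above background on the dim array. There were 2 such probes in each direction. The GDAP1L1 probe was at least 22.4-fold lower after IMQ+DMD, and an unnamed transcript at least 60.0-fold lower. ALDH1L1-AS2, an antisense RNA, was at least 105.5-fold higher (4.02 with IMQ and 2510.2 with IMQ+DMD) and another unnamed transcript at least 87.2-fold higher. All 4 bright spots had a higher unevenness than 99.9% of spots as bright on their array. At the brightness minimum itself, THAP8 was just inside (256.1 with IMQ and 204 with IMQ+DMD), and SHMT1 was just outside (255.9 and 215).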

How the data were processed

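THP-1 macrophages in 3 conditions were measured on 1-color arrays, 1 array per condition, all on 1 slide. The authors deposited the scanner output (Feature Extraction 10.5.1.1) and a table of raw intensity and quantile-normalized intensity per probe, and the normalized intensity was used here. The raw intensity in that table equalled the processed signal of the scanner for all 57901 probes with 1 spot, and 0 spots were saturated. The tool of the normalization is not given in the sources used here. No column of values per sample was left unused.

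Control spots were left out. Probes were named by matching the Entrez identifier in the table to current RefSeq symbols, which named 35686 of 58201 probes. A probe entered the comparison if it was well above background on both arrays with an log2 intensity of at least 8 on 1, and 20116 probes well above background on both were too dim. A gene was read from its brightest passing probe. Differences were taken on the log2 scale without a pseudocount, and thresholds of 2-fold and 1.5-fold stand in for a test, since 1 array per condition gives none. Precision is limited by the number of arrays, and noise was estimated from the 300 probes with 10 spots. The counting step was tested on simulated data.

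The members, gene lists and alternatives were chosen with earlier results of these data known. Named genes are the 12 largest differences in each direction, list members past 1.5-fold or, where none is, the one with the largest difference, the genes followed by RT-qPCR in the study, GDAP1L1, DNM1L and probes bright on 1 array. Other genes named were chosen after their values were seen. Of 537 listed genes, 434 were measured. Alternatives were scaling to the 75th percentile, raw intensity, scaling to 10 spike-in probes, normexp with an offset of 50 followed by quantile normalization, brightness minimums of 6, 10 (log2) and none, another rule for dim probes, omission of outlier-marked spots, the mean of all probes of a gene and, chosen after a trend was seen, centring by probe GC content and brightness. Python 3.11.15, numpy 2.4.6, pandas 2.3.3, matplotlib 3.10.9, R 4.3.3 and limma 3.58.1 were used. Promoters are from RefSeq (GRCh38.p14), and probe positions (hg19) are those of the array table.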

Additional observations from a re-analysis of the deposited data

How the results depend on the processing

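The counts of genes past a threshold depended on scaling and on the brightness minimum. Beside 22 genes at least 2-fold higher and 28 lower, spike-in scaling gave 127 and 10, normexp 9 and 17, a log2 minimum of 6 gave 116 and 84, a log2 minimum of 10 gave 4 and 12, no minimum gave 121 and 122, and the 75th percentile gave 45 lower. Beside 175 and 185 at 1.5-fold, spike-in scaling gave 596 and 70, a log2 minimum of 6 gave 622 and 489, a log2 minimum of 10 gave 25 and 69, and no minimum gave 735 and 743. The other settings stayed within 1.5 times of each count. The cause was not tested, except that the minimums change how many genes are counted. Of 330 values of list medians under the alternatives 39 had another sign and 73 moved by more than 0.1, a limit set by hand. Of 698 values for 67 named genes, 197 moved by more than the spot noise and 5 had another sign, none of the 5 for a gene past 1.5-fold. Of the 61 named genes past 1.5-fold, 20 fell under it in 1 or more settings, 14 of them under spike-ins, 10 under normexp and 6 under the 75th percentile. Centring by probe GC content and brightness, chosen after seeing the data, gave 18 and 24 genes at 2-fold. No paired analysis was possible because each condition had 1 array, and for the same reason no array could be left out. Signal over background limits the rest, since 20116 probes well above background on both arrays stayed below the minimum.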

Other observations

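The genes in this paragraph were chosen after their values were seen, and 1 array per condition gives no test. RGS16, a regulator of G-protein signaling like RGS2, read 5814 in Ctrl, 73204 with IMQ and 34271.5 with IMQ+DMD, with differences of -1.09 and -1.21 by its probes. PMEPA1, an inhibitor of TGF-beta signaling, read 63.1, 534 and 254, with differences of -1.07 and -1.53. Its probes reached the minimum with IMQ only, so they had to be lower. Metallothionein transcripts outside the list, MT1B (-0.60), MT1HL1 (-0.62) and MT1L (-0.72), were also lower, and all 10 measured genes with an MT1 or MT2 symbol lay below 0. FAH, the last enzyme of tyrosine breakdown, read 3387, 2630.4 and 5346 (1.02). CDK5RAP2, a centrosome protein, differed by 0.77 and 0.76 by its probes, and NRCAM, a cell adhesion molecule, by 0.86 and 0.64. GSTM3, a glutathione transferase, differed by 0.69 and TRIM16L by 1.06.

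Counts by gene class depend on the brightness minimum. Of 10755 protein-coding genes measured, 116 (1.08%) were at least 1.5-fold higher and 173 (1.61%) lower. Of the 116, 58 reached the minimum with IMQ+DMD only, and of the 173, 61 reached it with IMQ only. Of 817 long noncoding RNAs measured, 49 (6%) were at least 1.5-fold higher and 6 (0.734%) lower, beside 1.46% and 1.54% of all genes, but 31 of the 49 reached the minimum with IMQ+DMD only. Of 37 genes with an odorant receptor symbol, 10 were at least 1.5-fold higher and 0 lower, with a median of 0.30 and median intensities of 317 with IMQ and 422 with IMQ+DMD. Of these 10, 6 reached the minimum with IMQ+DMD only, so that they had to be higher, and no direction is read from this class.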
